A study of Mus musculus with 6 samples.

Results

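The genes described here are those that carry a cell through DNA replication and mitosis, together with the cyclins, cyclin-dependent kinases, E2F factors and pocket proteins that decide whether it enters the cycle. They were chosen by name, as a list of 58 genes matched to the gene symbols of an expression table of 13931 genes, and 57 of them were found there. Cdt1, a licensing factor, was not analysed here. The table holds transcript levels of whole mouse lenses at P0, the day of birth, from 3 Control and 3 Celf1cKO libraries. Control lenses are labeled Celf1lacZKI/+, so they carry 1 germline knockout allele, although the study's methods give Cre-negative Celf1flox mice as the general control, and which of these the lenses came from was not settled. Celf1cKO lenses carry 1 Celf1lacZKI allele, 1 Celf1flox allele in which exon 5 can be removed by Cre, and the Pax6GFPCre transgene, which expresses Cre from the lens placode onward in lens tissue and also acts in the pancreatic lineage. All mice were on a mixed C57BL/6 and FVB background, and each library was made from 2 pooled lenses.

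The lens grows from a single layer of epithelial cells on its anterior face. These cells divide, most actively in a band near the equator, and those that pass the equator leave the cell cycle and elongate into fiber cells, which later lose their nuclei. In a dividing cell, D-type cyclins with Cdk4 or Cdk6 and then cyclin E with Cdk2 phosphorylate the retinoblastoma protein and its relatives, which frees E2F factors to induce the genes of DNA replication. Genes of mitosis are induced later, largely through the MuvB complex with B-Myb and Foxm1, and both sets are repressed in resting cells by the DREAM complex. In whole lenses, which are mostly fiber tissue, a lower level of such a gene can mean fewer dividing cells or less RNA in each of them, and these cannot be told apart in bulk samples.

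Celf1 itself, the targeted gene, had log2 CPM (CPM is the read count scaled to library size) values of 9.95, 9.94 and 9.34 in the Control libraries and 8.93, 7.66 and 7.83 in the Celf1cKO libraries. Its log2 fold-change was −1.60 (SE 0.335, adjusted p = 0.0269, limma with Benjamini-Hochberg adjustment). The libraries held between 40694454 and 44387151 counted reads, and a member gene had between 27 and 16509 reads in a library. Crystallin genes took 45.8% to 46.9% of the reads in Control and 34.7% to 38.5% in Celf1cKO libraries. Of 57 members, 52 had a mean level above 1 on the log2 CPM scale, and Cdc6, Gins1, E2f2, Cdc25c and Ttk did not.

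A gene was called changed at an adjusted p under 0.05 in limma, a log2 fold-change beyond 0.58 in either direction and a mean log2 CPM above 1. By this measure 2 members were called higher in Celf1cKO lenses, Cdk6 and Ccnd2, where 4.69% of all genes were called higher. No member was called lower, where 2.56% of all genes were, and limma voom on the recovered reads also called none. At an unadjusted p under 0.05, 14 members were lower and 4 were higher, beside 13.7% and 16.3% of all genes. No pairing of libraries is described in the sources used here, but same-numbered libraries deviated together from their group means in these data. With these taken as pairs in a block, Rrm1 and Top2a were also called lower. Then 2 members were called higher and 2 lower, beside 5.35% and 3.66% of all genes.

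In 47 of 57 members, or 82.5%, the log2 fold-change was below 0, which held for 53.6% of all genes and 49.4% of expressed genes. Over the members the log2 fold-change had a median of −0.50, with a range from −1.30 to 1.38, and that of all genes was −0.035. All 3 Celf1cKO libraries lay below all 3 Control libraries in 16 members (28.1%, against 17.0% of all genes) and above them in 5 members (8.77%, against 19.5%). In the remaining 36 members the groups overlapped.

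Many of the extreme values of the members lay in Control library 3 and Celf1cKO library 2. Control library 3 had the highest value of all 6 libraries in 44 members (77.2%, against 21.7% of all genes), and Celf1cKO library 2 had the lowest in 37 (64.9%, against 25.1%). The median log2 fold-change of the members was −0.32 without Celf1cKO library 2, −0.23 without Control library 3 and −0.093 without both, when 36 of 57 members were below 0. These libraries were singled out by their extreme values, so the move toward 0 followed from the choice. Without Control library 2 the median was −0.66, and without Celf1cKO library 1 it was −0.64. Leaving out single libraries also changed the calls. Without Celf1cKO library 1, 6 members were called lower (Mcm2, Rrm1, Ccnb2, Aurkb, Bub1b and Cenpe) and 3 higher (Cdk6, Ccnd2 and Rb1), beside 6.14% and 7.35% of all genes. Without Control library 2 or without Celf1cKO library 3, no member was called higher, beside 0.00718% of all genes, and no gene at all was called lower. Without Celf1cKO library 2, Cdk6 was called higher and no member lower, beside 2.15% and 0.94% of all genes. Without Control library 3, Ccnd2 was called higher and no member lower, beside 2.26% and 0.811%. Without both of these libraries no member was called in either direction, beside 0.0502% and 0.00718%. Without Control library 1, Cdk6 was called higher and no member lower, beside 2.96% and 1.26%. With all libraries but no variance trend in the fit, Cdk6 was again the called member, beside 2.15% of all genes called higher and 0.811% lower. Scaling by total counted reads in place of the authors' normalization gave 4 members called higher (Cdk6, Ccnd2, Ccne1 and Rb1) and none lower, beside 11.8% and 1.41% of all genes, and shifted the median of all expressed genes by 0.23 on the log2 scale.

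**Figure D1:**
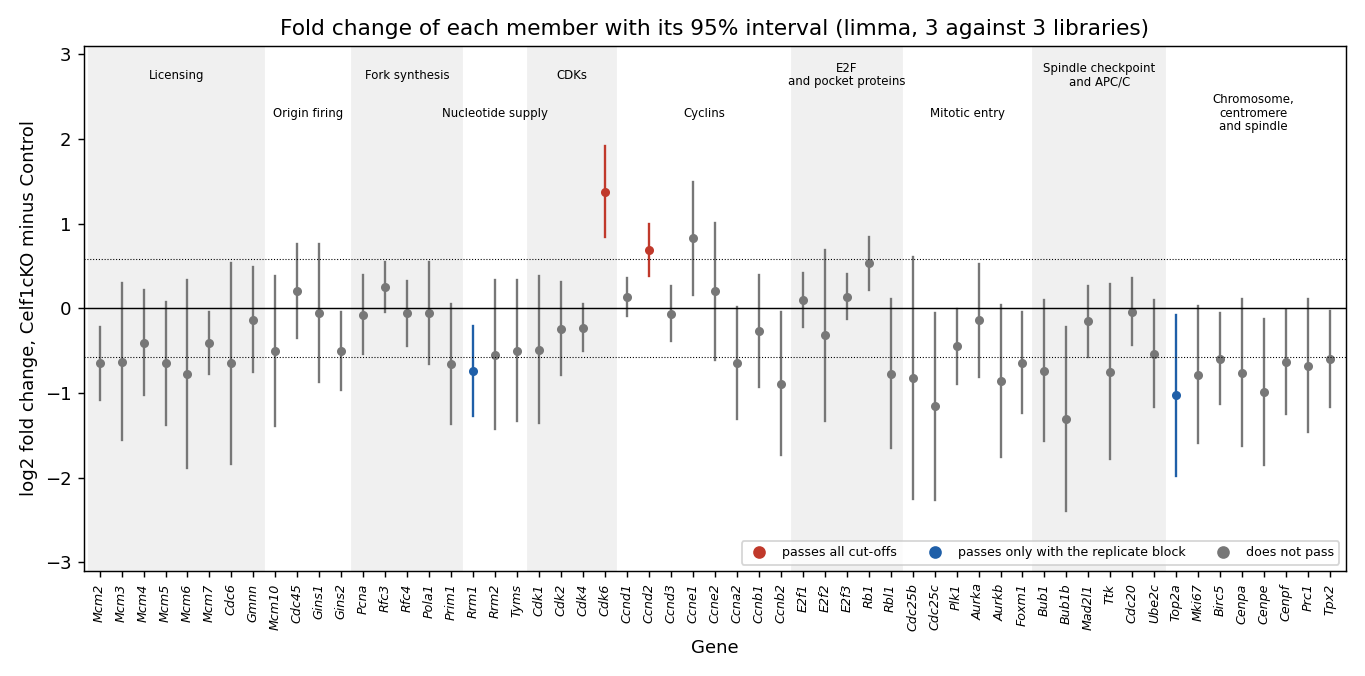
Log2 fold-change (Celf1cKO minus Control, vertical axis) of each of the 57 member genes, ordered by role along the horizontal axis, with bars for the 95% confidence interval from limma. Cdk6 at 1.38 and Ccnd2 at 0.69 are the 2 called genes, and all 24 mitotic members lie below 0, down to −1.30 for Bub1b.

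For what follows, the members were sorted by stage after their values had been seen. The 13 genes of G1 and S-phase entry are Cdk2, Cdk4, Cdk6, the cyclins D and E, and the E2F and pocket protein genes. The 20 replication genes cover licensing, origin firing, fork synthesis and nucleotide supply. The 24 mitotic genes hold Cdk1, the cyclins A and B and the genes of mitotic entry, the spindle checkpoint and the chromosomes.

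The G1 genes held both called members. Cdk6, a catalytic partner of D-type cyclins on chromosome 5 (GRCm38, 3341485 to 3531008, plus strand), stood at 3.28, 3.29 and 3.01 log2 CPM in Control and at 4.05, 4.92 and 4.75 in Celf1cKO libraries. Every Celf1cKO library lay above every Control library. The log2 fold-change was 1.38 (SE 0.231, adjusted p = 0.0159, limma), a 2.60-fold higher level, and it ranged from 1.21 to 1.64 as each library was left out. Ccnd2, which encodes cyclin D2 (chromosome 6, 127125162 to 127152193, minus strand), had 7.51, 7.40 and 7.79 log2 CPM in Control and 8.06, 8.32 and 8.39 in Celf1cKO libraries. Again no Celf1cKO library reached down to a Control library, and the log2 fold-change of 0.69 (SE 0.133, adjusted p = 0.0213, limma) corresponds to 1.61-fold. Leaving out a library moved it between 0.60 and 0.80. Both genes overlap annotated genes on the opposite strand, and whether the authors' counting used the strand is not given in the sources used here.

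Rb1, the gene of the retinoblastoma protein that holds E2F factors in check, was higher in every Celf1cKO library. Its values were 4.69, 4.89 and 4.48 log2 CPM in Control and 5.11, 5.39 and 5.15 in Celf1cKO libraries, with a log2 fold-change of 0.53 (SE 0.135, adjusted p = 0.0464, limma). This passed the p threshold, as 7.85% of all genes did in this direction at any fold-change, and fell short of the fold-change threshold. Ccne1, encoding cyclin E1, the activator of Cdk2 at S-phase entry, had 2.35, 1.60 and 2.03 log2 CPM in Control and 2.52, 3.31 and 2.63 in Celf1cKO libraries. The groups did not overlap, but the log2 fold-change of 0.83 had an SE of 0.284 and did not pass the test (adjusted p = 0.101, limma).

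The other D-type cyclins and Cdk4 did not follow. Ccnd1 had a log2 fold-change of 0.13 (95% confidence interval −0.095 to 0.36) and Ccnd3 of −0.064 (−0.39 to 0.26). Cdk4, the other partner of these cyclins, had one of −0.23 (−0.51 to 0.052). Within a library the log2 ratio of Ccnd2 to Ccnd1 was 0.68, 0.66 and 0.76 in Control and 1.12, 1.31 and 1.33 in Celf1cKO libraries. The groups were separate and the means differed by 0.55, with p = 0.1 in an exact two-sided permutation test, the smallest that 3 against 3 libraries allow. The log2 ratio of Cdk6 to Cdk4 differed by 1.61 with the same exact p = 0.1, from −2.91, −2.84 and −3.19 in Control to −2.14, −0.84 and −1.12 in Celf1cKO libraries. Each of these ratios holds a called member, so its separation is not independent of that call. The ratios of Ccnd2 to Ccnd3 (difference 0.75) and of Top2a to Mki67 (−0.25) were also taken, with p = 0.1 in the same permutation test.

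Per kilobase of exon, with all annotated exons of a gene merged, the order of the D-type cyclins was not the same in the groups. In log2 CPM without this division, Ccnd2 was above Ccnd1 in every library of both groups. On the scale of log2 CPM per kilobase, Ccnd1 was the highest in Control at 4.63 ± 0.15 (SD, n = 3), then Ccnd2 at 4.33 ± 0.20 and Ccnd3 at 3.62 ± 0.15. Ccnd1 was above Ccnd2 in each Control library, at 4.59 against 4.28, 4.50 against 4.16 and 4.80 against 4.56. In Celf1cKO lenses Ccnd2 led at 5.02 ± 0.17, ahead of Ccnd1 at 4.76 ± 0.058 and Ccnd3 at 3.56 ± 0.24. Ccnd2 exceeded Ccnd1 in each of these libraries. Cdk6 stayed below Cdk4 in both groups, at −0.62 ± 0.16 and 0.77 ± 0.46 log2 CPM per kilobase against 4.47 ± 0.037 and 4.24 ± 0.22 (SD, n = 3).

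Among the remaining G1 genes, the activating E2F genes E2f1 and E2f3 had log2 fold-changes of 0.096 and 0.14, and E2f2, which was below the level threshold, of −0.32. Rbl1, which encodes the pocket protein p107, went the other way from Rb1. It had 2.43, 2.46 and 3.49 log2 CPM in Control and 2.62, 1.56 and 1.89 in Celf1cKO libraries, so the groups overlapped, and its log2 fold-change of −0.77 did not pass the test (SE 0.376, adjusted p = 0.214, limma). Ccne2 and Cdk2 stood at 0.20 and −0.24. Of the 13 G1 genes, 8 had a log2 fold-change above 0, and the median was 0.13. In every Celf1cKO library 4 were higher than in every Control library (Cdk6, Ccnd2, Ccne1 and Rb1), or 30.8%, against 19.5% of all genes. None was lower in every one, against 17.0% of all genes.

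**Figure D2:**
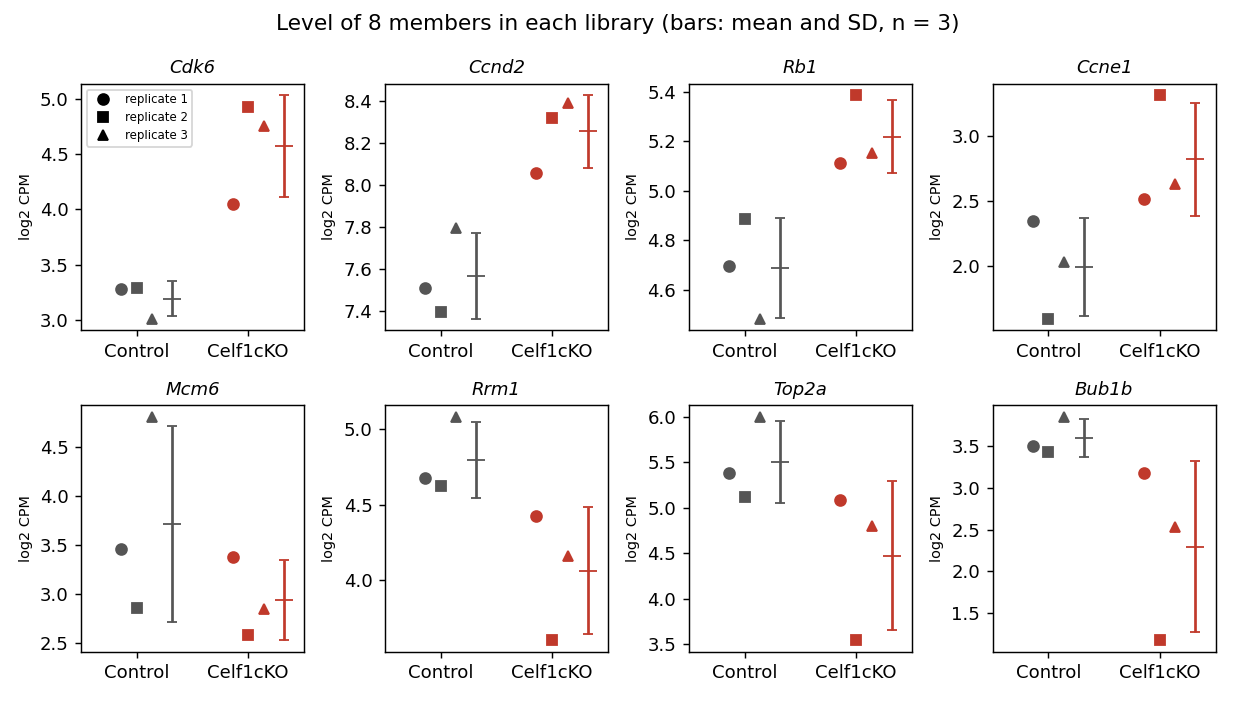
Level (log2 CPM) of selected member genes in each library, with 1 point per library, Control and Celf1cKO side by side, and bars for the mean and SD of each group (n = 3). Cdk6, Ccnd2, Bub1b and Top2a are each separated between the groups, and of these only Cdk6 and Ccnd2 were called in the fit without pairs. Bub1b and Top2a have their lowest point in Celf1cKO library 2, at 1.17 and 3.54.

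The replication genes had lower means in Celf1cKO lenses in 18 of 20 cases (median log2 fold-change −0.50), and none was called in the fit without pairs. All 8 licensing genes, which load the MCM2-7 helicase at origins or control that loading, had a log2 fold-change below 0 (median −0.64). All 8 had their highest value in Control library 3, which exceeded the mean of the other Control libraries by a median of 0.99 on the log2 scale. Among the MCM2-7 genes this excess was largest in Mcm6, a helicase subunit, with 3.46, 2.86 and 4.81 log2 CPM in Control and 3.38, 2.58 and 2.85 in Celf1cKO libraries. Its log2 fold-change of −0.78 had an SE of 0.473 (adjusted p = 0.308, limma) and was between −1.20 and −0.23 as libraries were left out. Mcm5, another subunit, had 3.24, 3.09 and 4.21 log2 CPM in Control and 3.05, 2.53 and 3.0 in Celf1cKO libraries. The groups were narrowly apart, between Control library 2 and Celf1cKO library 1, and the log2 fold-change was −0.65 (SE 0.310, adjusted p = 0.206, limma), or −0.30 without Control library 3.

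Mcm2 came nearest to the threshold among the members with lower means. It had 5.02, 4.89 and 5.41 log2 CPM in Control and 4.76, 4.36 and 4.25 in Celf1cKO libraries, a log2 fold-change of −0.65 with an SE of 0.184 (adjusted p = 0.0622, limma). Mcm7 and Mcm3 stood at −0.41 and −0.63, Mcm4 at −0.40, and the licensing inhibitor geminin, Gmnn, at −0.14. Cdc6, which loads the helicase, was close to the lower end of the measured levels, with 1.72 log2 CPM in Control library 3 and between −0.33 and 0.13 in the others.

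Of the origin firing genes, Mcm10, a factor that acts as the helicase is activated, had 2.59, 2.04 and 3.03 log2 CPM in Control and 2.74, 1.43 and 1.97 in Celf1cKO libraries. The groups overlapped, at a log2 fold-change of −0.50 (adjusted p = 0.406, limma), and without Control library 3 and Celf1cKO library 2 it was 0.039 (adjusted p = 0.965). Gins2, a subunit of the GINS part of the replicative helicase, had 2.25, 2.13 and 2.53 log2 CPM in Control and 1.99, 1.65 and 1.76 in Celf1cKO libraries. Here the groups were apart, although the log2 fold-change of −0.50 did not pass the test (SE 0.198, adjusted p = 0.138, limma). Cdc45, the third helicase component, stood at 0.21 and Gins1 at −0.059.

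The 5 genes of fork synthesis had a median log2 fold-change of −0.060. Pcna, the sliding clamp, had 4.37, 4.26 and 5.02 log2 CPM in Control and 4.53, 4.46 and 4.43 in Celf1cKO libraries, with a log2 fold-change of −0.075 (95% confidence interval −0.54 to 0.39). Its pseudogene copies could share reads with it, and only uniquely mapped reads were kept. Rfc3, a subunit of the clamp loader, was the only replication gene higher in every Celf1cKO library, at 3.26, 3.32 and 3.17 against 3.56, 3.55 and 3.40 log2 CPM, and its log2 fold-change of 0.26 did not pass the test (adjusted p = 0.221, limma). Prim1, the catalytic subunit of primase, had 1.76, 1.78 and 2.78 log2 CPM in Control and 1.49, 1.41 and 1.44 in Celf1cKO libraries. All 3 Celf1cKO libraries were lower, and the log2 fold-change of −0.66 had an SE of 0.302 (adjusted p = 0.191, limma) and was −0.32 without Control library 3. Rfc4 and Pola1 stood at −0.060 and −0.054.

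Ribonucleotide reductase, which makes deoxyribonucleotides, has its large subunit encoded by Rrm1. This gene had 4.68, 4.62 and 5.08 log2 CPM in Control and 4.42, 3.60 and 4.16 in Celf1cKO libraries, all below the Control values. Its log2 fold-change was −0.73, or 60.1% of the Control level, with an adjusted p of 0.0781 without pairs and 0.0408 with the pairs as a block (limma). Rrm2, the small subunit that is made in S phase, overlapped between the groups. It had 2.72, 2.27 and 3.86 log2 CPM in Control and 2.28, 2.52 and 2.41 in Celf1cKO libraries, and its log2 fold-change of −0.55 (adjusted p = 0.369, limma) was −0.090 without Control library 3. Tyms, the thymidylate synthase gene, stood at −0.50.

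All 24 mitotic genes had lower means in Celf1cKO lenses. Their median log2 fold-change was −0.66, and none was called in the fit without pairs. In every Celf1cKO library 10 were below every Control library (41.7%, against 17.0% of all genes). In 23 of 24 (95.8%, against 25.1% of all genes) the lowest value was that of Celf1cKO library 2. It fell short of the mean of the other Celf1cKO libraries by a median difference of −0.91 on the log2 scale. Without this library the median log2 fold-change of the mitotic genes was −0.37. Without Control library 3 as well it was −0.21, and 20 of 24 were below 0. The corresponding median of the 20 replication genes was −0.025.

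**Figure D3:**
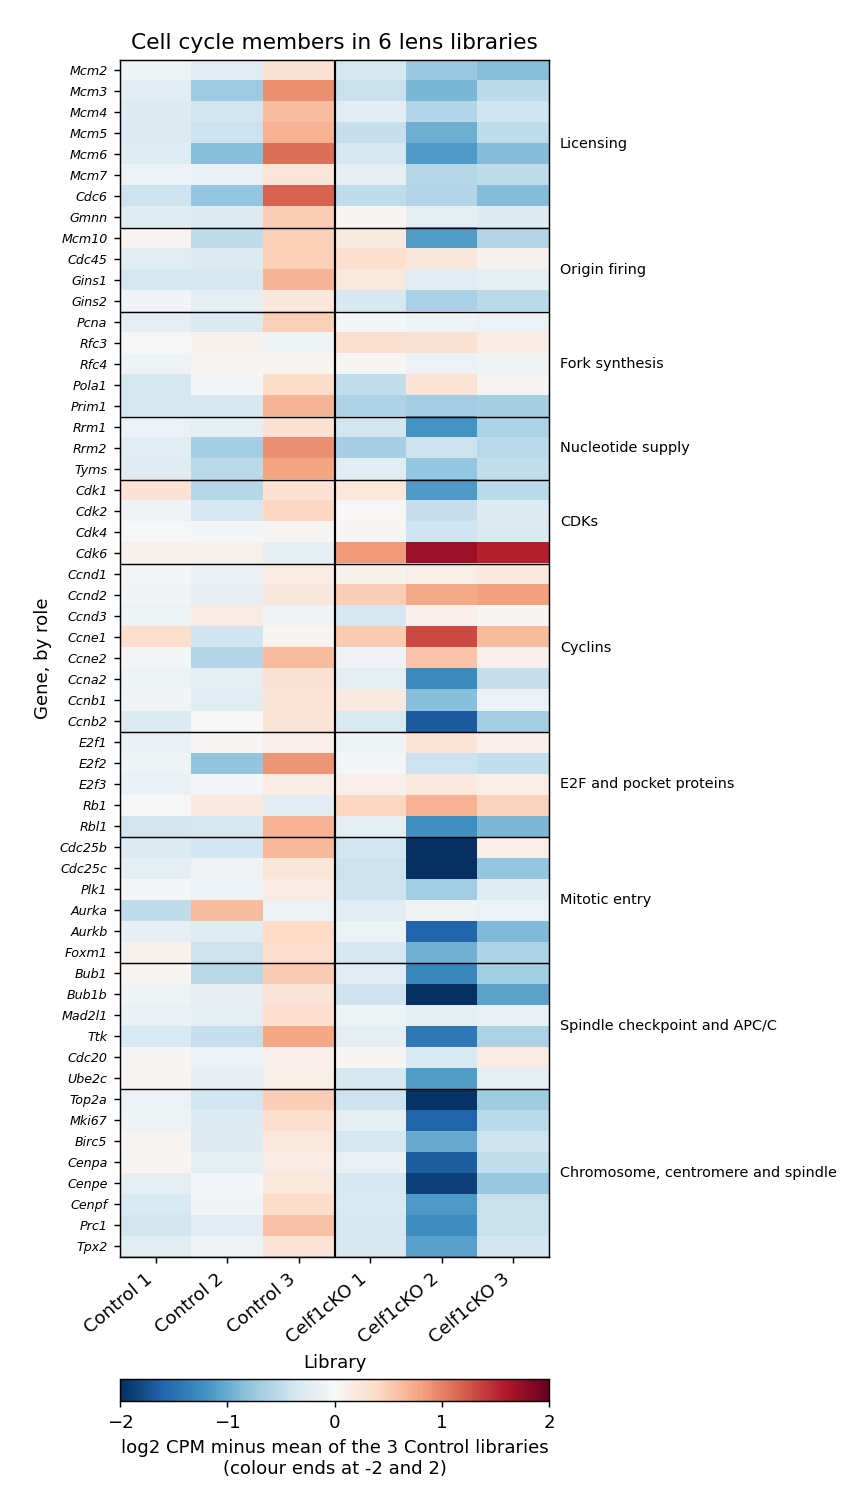
Level of each member (rows, by role) in each library (columns) as the difference in log2 CPM from the mean of the 3 Control libraries, on the color scale shown. Control library 3 stands above the other Control libraries in all 8 licensing genes, and Celf1cKO library 2 is the lowest column in 23 of the 24 mitotic genes.

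Bub1b, which encodes the checkpoint kinase BubR1, had the largest difference of the members with lower means. It had 3.51, 3.43 and 3.86 log2 CPM in Control and 3.18, 1.17 and 2.53 in Celf1cKO libraries. The groups were apart, but the Celf1cKO libraries ranged over more than the difference between the means, and the log2 fold-change of −1.30 (SE 0.465) had an adjusted p of 0.111 (limma). Leaving out libraries moved it from −1.75 to −0.74, and without Celf1cKO library 1 it was called lower (adjusted p = 0.0244). Ttk, the kinase Mps1 of the same checkpoint, had 1.06, 0.91 and 2.13 log2 CPM in Control and 1.19, −0.070 and 0.74 in Celf1cKO libraries, and the groups overlapped (log2 fold-change −0.75, adjusted p = 0.295, limma). Bub1 stood at −0.73, the ubiquitin-conjugating enzyme gene Ube2c at −0.53, the checkpoint gene Mad2l1 at −0.15 and the anaphase activator Cdc20 at −0.039.

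Top2a, the topoisomerase that untangles replicated chromosomes, had 5.38, 5.12 and 6.00 log2 CPM in Control and 5.08, 3.54 and 4.80 in Celf1cKO libraries. Each Celf1cKO value was below each Control value. The log2 fold-change was −1.03, or 49.1% of the Control level, with an adjusted p of 0.141 without pairs and 0.0406 with the pairs as a block (limma). It moved to −0.56 without Celf1cKO library 2 and to −0.31 without Control library 3 as well. Cenpe, a kinesin of the kinetochore, had 3.32, 3.46 and 3.71 log2 CPM in Control and 3.16, 1.63 and 2.74 in Celf1cKO libraries. It too was separate between the groups, with a log2 fold-change of −0.99 (SE 0.369, adjusted p = 0.123, limma). Mki67, whose protein Ki-67 coats mitotic chromosomes and marks cycling cells, overlapped between the groups at 5.54, 5.38 and 5.97 against 5.43, 4.03 and 5.09 log2 CPM, at a log2 fold-change of −0.78 (adjusted p = 0.179, limma). The other 5 genes of chromosomes, centromeres and the spindle (Birc5, Cenpa, Cenpf, Prc1 and Tpx2) lay between −0.76 and −0.59, and all 8 of this role had their lowest value in Celf1cKO library 2 and their highest in Control library 3.

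Of the genes that drive entry into mitosis, Cdc25c, a phosphatase that activates Cdk1, had 1.37, 1.48 and 1.79 log2 CPM in Control and 1.11, −0.73 and 0.78 in Celf1cKO libraries. No Celf1cKO library reached the Control values, and the log2 fold-change was −1.16 (SE 0.474, adjusted p = 0.151, limma), in a gene just under the level threshold. Aurkb, the kinase of the chromosomal passenger complex, had 2.43, 2.34 and 2.99 log2 CPM in Control and 2.49, 1.0 and 1.70 in Celf1cKO libraries. Its groups overlapped through Celf1cKO library 1, and the log2 fold-change of −0.86 did not pass the test (adjusted p = 0.181, limma). Cdc25b, Foxm1, Plk1 and Aurka stood at −0.82, −0.64, −0.45 and −0.14. Cdk1, the mitotic kinase, had 4.02, 3.15 and 4.02 log2 CPM in Control and 3.94, 2.60 and 3.19 in Celf1cKO libraries, and its log2 fold-change of −0.49 did not pass the test (adjusted p = 0.412, limma) and was −0.17 without Celf1cKO library 2. Ccnb2, encoding cyclin B2, had 2.0, 2.27 and 2.53 log2 CPM in Control and 1.96, 0.59 and 1.56 in Celf1cKO libraries. The groups were narrowly apart, between Control library 1 and Celf1cKO library 1, with a log2 fold-change of −0.89 (SE 0.362, adjusted p = 0.148, limma). Ccna2 and Ccnb1 stood at −0.64 and −0.26. Without Celf1cKO library 2 the log2 fold-changes of Cenpe, Cdc25c, Aurkb, Ccnb2 and Ttk were −0.55, −0.60, −0.50, −0.50 and −0.40.

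The promoters of the named members were examined for the letters that E2F factors and the MuvB complexes are known to bind. RefSeq windows on GRCm38.p6, from 250 bases before to 50 bases after the start, were at hand for 44 of 57 members. The E2F motif was searched as TTTCCCGC, TTTCGCGC, TTTGCCGC and TTTGGCGC, and the CHR (cell cycle genes homology region) as TTTGAA, on both strands, so that neighboring or overlapping matches can share letters. An E2F match was found in 7 of 16 replication genes (43.8%), 1 of 19 mitotic genes (5.26%), 4 of 9 G1 genes (44.4%) and 4.56% of the 10827 genes of the table with a window, a gene with several windows being counted once. A CHR match was found in 2 of 16 replication genes (12.5%), 13 of 19 mitotic genes (68.4%), 2 of 9 G1 genes (22.2%) and 14.3% of those genes. Below are 2 helicase genes and 2 mitotic genes with matches and Cdk6, the called member with a window, each 5′ to 3′ on the strand of the gene, with matches in capitals.
Mcm5: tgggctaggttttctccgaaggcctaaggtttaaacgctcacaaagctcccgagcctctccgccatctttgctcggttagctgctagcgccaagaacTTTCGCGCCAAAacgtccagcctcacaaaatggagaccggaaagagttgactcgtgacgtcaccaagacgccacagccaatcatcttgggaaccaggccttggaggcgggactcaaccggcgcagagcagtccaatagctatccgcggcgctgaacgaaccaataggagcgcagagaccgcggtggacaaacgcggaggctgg
Mcm6: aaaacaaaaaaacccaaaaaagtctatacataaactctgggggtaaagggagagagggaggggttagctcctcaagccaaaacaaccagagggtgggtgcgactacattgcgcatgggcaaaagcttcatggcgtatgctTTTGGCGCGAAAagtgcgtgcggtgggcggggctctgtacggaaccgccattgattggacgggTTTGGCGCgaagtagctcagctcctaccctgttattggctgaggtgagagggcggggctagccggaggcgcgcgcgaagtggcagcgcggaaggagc
Top2a: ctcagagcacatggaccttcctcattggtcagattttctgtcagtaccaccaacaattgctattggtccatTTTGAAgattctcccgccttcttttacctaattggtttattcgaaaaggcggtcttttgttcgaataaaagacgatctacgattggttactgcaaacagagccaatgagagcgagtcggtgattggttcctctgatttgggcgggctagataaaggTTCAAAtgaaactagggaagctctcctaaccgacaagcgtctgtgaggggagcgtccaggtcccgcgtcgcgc
Bub1b: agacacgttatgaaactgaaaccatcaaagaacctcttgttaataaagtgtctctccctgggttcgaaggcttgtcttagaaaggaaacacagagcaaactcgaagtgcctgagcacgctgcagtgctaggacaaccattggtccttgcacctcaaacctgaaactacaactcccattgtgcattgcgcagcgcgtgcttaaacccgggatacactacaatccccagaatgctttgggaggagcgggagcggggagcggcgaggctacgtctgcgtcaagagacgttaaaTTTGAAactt
Cdk6: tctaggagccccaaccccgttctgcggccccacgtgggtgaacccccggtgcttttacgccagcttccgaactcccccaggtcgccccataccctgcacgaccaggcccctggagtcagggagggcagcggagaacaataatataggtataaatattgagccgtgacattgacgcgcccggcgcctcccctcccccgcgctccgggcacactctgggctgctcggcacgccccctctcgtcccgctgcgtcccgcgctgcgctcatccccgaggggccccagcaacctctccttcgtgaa

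The Mcm5 window (chr8:75109259-75109558, plus strand) holds 2 E2F matches that overlap, 153 and 149 bases before the start. The Mcm6 window (chr1:128359656-128359955, minus strand) holds 3, of which the pair at 110 and 106 bases before the start overlaps and the last lies 47 bases before it. Top2a (chr11:99024140-99024439, minus strand) has CHR matches 179 and 23 bases before its start, and Bub1b (chr2:118597961-118598260, plus strand) has 1 match, 40 bases after its start. The Cdk6 window (chr5:3343643-3343942, plus strand) holds neither set of letters. A match describes the letters only, and binding was not measured.

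The same counts were made for 144 other cell cycle genes, taken from a list of 145 drawn up by function. The log2 fold-change was below 0 in 111 of them (77.1%, against 53.6% of all genes), with a median of −0.26. It was −0.41 over 89 mitotic genes (71 below 0), −0.16 over 42 replication genes (31 below 0) and −0.21 over 13 E2F and DREAM genes (9 below 0). Control library 3 was the highest in 94 of the 144 (65.3%, against 21.7% of all genes) and Celf1cKO library 2 the lowest in 75 (52.1%, against 25.1%). By the same thresholds 4 were called higher and none lower in limma and in limma voom, beside 4.69% and 2.56% of all genes in limma. At an unadjusted p under 0.05, 21 were lower and 11 higher, beside 13.7% and 16.3% of all genes. The called genes were Fzr1 (log2 fold-change 0.88, adjusted p = 0.0162), which activates the anaphase-promoting complex in G1 and at cell cycle exit, the kinetochore gene Zwint (0.81, 0.00995), the checkpoint gene Bub3 (0.77, 0.0101) and the nuclear import gene Kpna2 (0.63, 0.0310). With the pairs as a block, Gins3 was also called higher (1.45, adjusted p = 0.0376), and the thymidine kinase gene Tk1 (−1.41, 0.0337) and the mitotic kinase gene Pbk (−1.20, 0.0488) were called lower. In that fit 5.35% of all genes were called higher and 3.66% lower.

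Of the CDK inhibitors, which oppose the kinases above, Cdkn1a stood at a log2 fold-change of 5.42 and Cdkn2d at 0.88. Both were called higher (adjusted p = 0.00888 and 0.0114, limma), beside 4.69% of all genes. Cdkn2c, an inhibitor of Cdk4 and Cdk6, had the lowest log2 fold-change of the 6, at −1.04, which did not pass the test (adjusted p = 0.136, limma). Cdkn1c stood at 0.28, Cdkn1b at −0.20 and Cdkn2b at −0.23. None of the 6 inhibitors in the table was called lower in limma or in limma voom, beside 2.56% of all genes in limma. At an unadjusted p under 0.05, 1 was lower and 3 were higher, beside 13.7% and 16.3% of all genes.

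The sums of CPM over the members show how the libraries stood. The 24 mitotic genes summed to 257, 237 and 348 CPM in Control and 234, 111 and 195 in Celf1cKO libraries. The 20 replication genes summed to 195, 179 and 309 CPM in Control and 187, 151 and 160 in Celf1cKO libraries. The 13 G1 genes, of which Ccnd2 is the most abundant, summed to 557, 556 and 629 CPM in Control and 656, 753 and 758 in Celf1cKO libraries. The G1 sums were separate and higher in Celf1cKO, the mitotic sums were separate and lower, by 237 against 234 CPM in the nearest libraries, and the replication sums overlapped.

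Sums were also taken over markers of other cells. The 5 vessel markers (Pecam1, Cdh5, Kdr, Tek and Rgs5) summed to between 118 and 153 CPM in Control and between 24.4 and 129 in Celf1cKO libraries, with the lowest sum in Celf1cKO library 2, as for the mitotic genes. Of 7 markers of retina, pigment epithelium and ciliary body, 5 were in the table, and they summed to between 2.45 and 30.7 CPM in Control and between 5.76 and 21.5 in Celf1cKO libraries, highest in Control library 3. Their sum in Celf1cKO library 3, 21.5 CPM, was above the 11.2 and 2.45 of Control libraries 1 and 2. The mitotic and replication sums of Celf1cKO library 3 were below those of both these Control libraries. What part retina, pigment epithelium or ciliary body had in these sums was not tested. Of 7 blood and immune markers 4 were in the table, at 1.83 to 6.32 and 2.45 to 3.90 CPM, and of 5 markers of periocular mesenchyme 2 were, at 2.91 to 3.84 and 0.803 to 3.03 CPM. None of these listed markers was at 0 in all libraries, and none of the 5 markers of cornea and skin epithelium was in the table used here.

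The 7 lens epithelium markers summed to between 4391 and 4726 CPM in Control and between 3789 and 3908 in Celf1cKO libraries, a sum made up mostly of Dkk3 and Sparc. In 6 of the 7 (Foxe3, Cdh1, Gja1, Pdgfra, Pax6 and Sparc) the lowest of all libraries was Celf1cKO library 2, beside 25.1% of all genes. Foxe3, a transcription factor of the lens epithelium that keeps it proliferating, had 4.88, 5.06 and 4.91 log2 CPM in Control and 3.41, 1.63 and 3.77 in Celf1cKO libraries, and it was called lower (log2 fold-change −2.01, adjusted p = 0.0434, limma). Pdgfra (−1.54, adjusted p = 0.0497) and Sparc (−0.89, adjusted p = 0.0162) were also called lower, and Cdh1 (−1.34, 0.148), Gja1 (−0.95, 0.346), Pax6 (−0.37, 0.213) and Dkk3 (0.14, 0.415) did not pass the test in limma. The 8 fiber markers in the table, of 9 listed, summed to between 24826 and 34558 CPM in Control and between 19562 and 20876 in Celf1cKO libraries. The part of the marked cell types, lens epithelium included, in the values of the cell cycle genes was not tested.

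**Figure D4:**
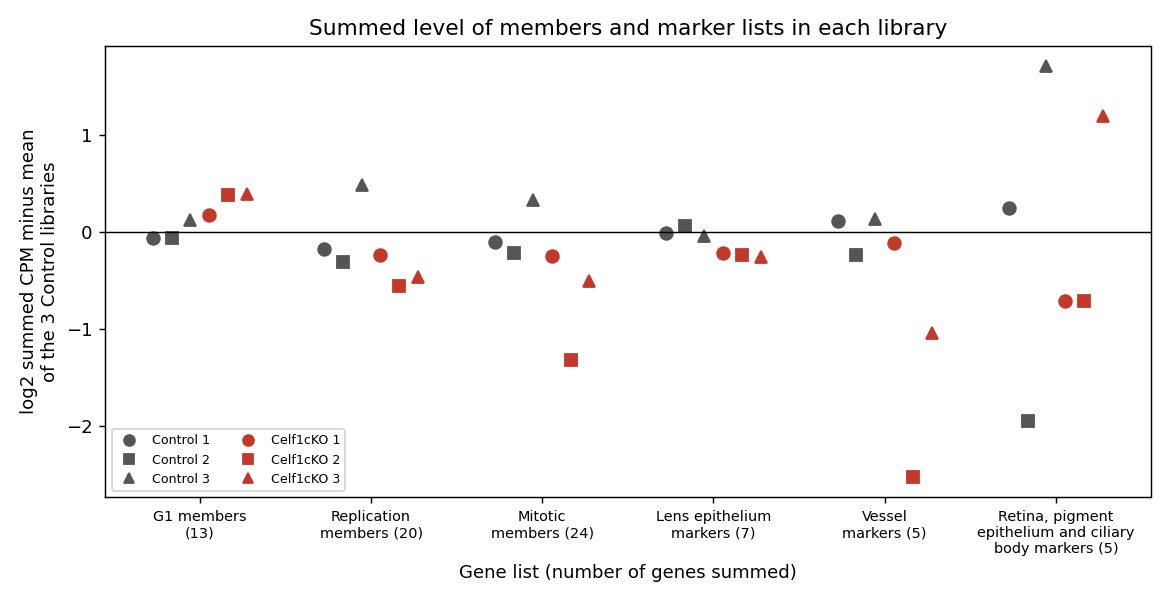
Summed level of the member groups and of the marker lists in each library, as the log2 ratio to the mean of the 3 Control libraries. The vessel and the mitotic sums are both lowest in Celf1cKO library 2, and the G1 sum is above the Control libraries in all 3 Celf1cKO libraries.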

How the data were processed

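Whole newborn lenses were profiled by strand-specific paired-end RNA-seq. The authors aligned reads to GRCm38.p6 with STAR 2.7.8a, retained reads that mapped once, ran featureCounts 2.0.0 for gene counts, removed genes of very low CPM and normalized the libraries with edgeR. The deposited values are log2 CPM with a small prior count. The table also holds the authors' fold-changes, group and average levels, F statistics, p-values and FDR, which were not used.

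Samples were grouped by their labels. All 13931 genes were fitted with limma 3.58.1 (R 4.3.3, trended empirical Bayes, 3.40 prior degrees of freedom), with Benjamini-Hochberg adjustment over the table. Whether lenses pooled in a library came from separate litters is not stated, so p-values measure the spread between these libraries. Same-numbered libraries deviated together from their group means (r = 0.26, 0.39 and 0.38 across genes, against −0.39 to −0.0053 for other pairings). Deviations within a group cancel out, so positive values for some pairings force negative ones for others. The pairing was taken from these values, and the fit with these pairs as a block was an alternative. Whole reads were recovered from 100% of the values, giving 40694454 to 44387151 per library. The fit was tested on simulated data. Gene positions came from GENCODE M21, and of the members 25 overlap a gene on the opposite strand and 5 (Ccnb1, Ccnb2, Ccnd3, Pcna and Tyms) have annotated pseudogene copies, so their values are less certain.

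The members and lists were chosen with earlier results of these data known. Named with all values are the called members and the 2 of each role with the largest absolute log2 fold-change, besides the called other genes. Mcm2, Pcna, Mki67, Cdkn2c and Foxe3 were chosen once their values had been seen. Alternatives were the block, no variance trend, robust empirical Bayes, log2(CPM + 1), median centring, quantile normalization, rescaling without 16 crystallin genes, total counted reads, limma voom on the recovered reads, other thresholds and each library left out. Leaving out Control library 3 and Celf1cKO library 2 together was added after seeing the data. Plots used matplotlib 3.10.9 and Python 3.11.15.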

Additional observations from a re-analysis of the deposited data

How the results depend on the processing

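With 3 libraries a group, single libraries set the calls. As each library was left out, the members called higher numbered 0 to 3 and those called lower 0 to 6, the other cell cycle genes called higher 0 to 6 and lower 0 to 11, the median log2 fold-change of the members ran from −0.66 to −0.23, and the members with no overlap between the groups numbered 5 to 10 above and 16 to 29 below. Fewer libraries overlap less by construction: 10 above came without Control library 3, beside 23.3% of all genes, and 29 below without Celf1cKO library 1, beside 28.3%. Without Control library 3 and Celf1cKO library 2 together, a choice made after seeing the data, 0 members and 0 other cell cycle genes were called (Cdk6 1.12, adjusted p = 0.103, and Ccnd2 0.77, adjusted p = 0.0799, limma). The median was then −0.093, and Mcm10 turned from −0.50 to 0.039. With those libraries out, 11 of 57 members lay above with no overlap and 16 below, beside 25.6% and 26.2% of all genes. The replicate block, in which same-numbered libraries were paired, added 2 members called lower (Rrm1, Top2a) and 2 other genes called lower (Tk1, Pbk), with Gins3 called higher, and changed no other call of these genes. Without a variance trend 1 member (Cdk6) and 2 other genes were called higher, beside 412 genes in all in place of 1010. Scaled by total counted reads, which shifts the median of expressed genes by 0.23, 4 members (Cdk6, Ccnd2, Ccne1 and Rb1) and 11 other genes were called higher, and the median of the members was −0.28. For these the cause was not tested. Robust empirical Bayes, log2(CPM + 1), median centring, quantile normalization, rescaling without crystallin genes, limma voom and adjustment over expressed genes each called Cdk6 and Ccnd2 higher and no member lower. Of the alternative values for 21 named members, 377 kept their direction and side of the threshold, 11 passed it only there, 10 no longer did and 1 reversed. Members near 27 reads a library are the least precisely measured.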
